A study of Mus musculus with 9 samples.

Results

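The stefin A genes and 3 further cystatins were followed in the epidermis of mouse ears. The genes were taken by symbol from the count table and number 8 of its 52550 genes: Stfa1, Stfa2, Stfa2l1, Stfa3 and BC100530 of the stefin A cluster, and Cstb, Cst6 and Cst3. RNA came from intact epidermal ear sheets of wild type C57BL/6 mice aged 8 weeks per the labels, all male per the methods, in 3 groups of 3 libraries. The control group had Vaseline on the ears and ddH2O by gavage (VAS + H2O), the model group had imiquimod, a Toll-like receptor 7 agonist that induces a psoriasis-like dermatitis, and ddH2O (IMQ + H2O), and the XYF group had imiquimod and the Xiao-Yin-Fang decoction at 23.3 mg/g (IMQ + XYF). Gavage ran for 10 days and the topical application for 5 days in all groups. The methods state that the sheets came from a pair of mice without saying whether that holds for each library, so the p-values measure the spread between these libraries, which may be partly technical.

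Cystatins are tight-binding, reversible inhibitors of papain-like cysteine proteases, the cathepsins, and some of them also inhibit legumain. Stefins A and B lack a signal peptide and act mainly inside the cell, while cystatins C and E/M are secreted. In skin, stefin A is a component of the cornified envelope of keratinocytes and cystatin E/M restrains the proteases of cornification, and mouse stefin A genes are also known as transcripts of neutrophils and their precursors. Humans carry the gene CSTA where mice carry a cluster of near-identical copies.

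The cluster lies on chromosome 16 of GRCm38 and, in the GENCODE M21 annotation, runs from 36119946 to 36455392 over 335.4 kb with 11 annotated genes. From low to high coordinate these are Csta1, Stfa2l1, Gm5483, Gm5416, 2010005H15Rik, Stfa1, BC117090, BC100530, the pseudogene Gm4758, Stfa2 and Stfa3. Stfa1 (ENSMUSG00000071562) spans 36276951 to 36285373 on the plus strand, and Stfa2l1 (ENSMUSG00000059657) spans 36156811 to 36161953 on the same strand. On the minus strand, BC100530 (ENSMUSG00000071561) spans 36359382 to 36367748, Stfa2 (ENSMUSG00000022902) 36403992 to 36408457, and Stfa3 (ENSMUSG00000054905) 36450537 to 36455392. The other 3 genes lie apart, Cst3 (ENSMUSG00000027447) on chromosome 2 from 148871722 to 148875692, Cst6 (ENSMUSG00000024846) on chromosome 19 from 5344705 to 5349574, and Cstb (ENSMUSG00000005054) on chromosome 10 from 78425669 to 78427622.

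The copies resembled each other in the windows before their RefSeq starts as well as in their coding sequence. RefSeq (GRCm38.p6) gave a window of 250 bases before the start for 6 of the 8 genes, BC100530 being listed there as Cstdc5, and none for Cst6 and Cstb. The 5 stefin A windows are printed here from 5′ to 3′ because they show how alike the copies are, less the bases that fall in a GENCODE exon of the same gene. Capitals mark the 15 bases that are the longest run shared by all 5. The stretches are chr16:36276898-36276950, plus strand, for Stfa1, chr16:36367749-36367820, minus strand, for BC100530, chr16:36408458-36408613, minus strand, for Stfa2, chr16:36156561-36156810, plus strand, for Stfa2l1, and chr16:36455393-36455642, minus strand, for Stfa3.
Stfa1: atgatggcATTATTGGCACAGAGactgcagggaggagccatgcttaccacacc
BC100530: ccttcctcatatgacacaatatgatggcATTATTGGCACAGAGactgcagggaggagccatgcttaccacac
Stfa2: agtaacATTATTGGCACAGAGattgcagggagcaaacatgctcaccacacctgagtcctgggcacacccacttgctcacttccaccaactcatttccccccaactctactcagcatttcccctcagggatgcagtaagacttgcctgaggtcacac
Stfa2l1: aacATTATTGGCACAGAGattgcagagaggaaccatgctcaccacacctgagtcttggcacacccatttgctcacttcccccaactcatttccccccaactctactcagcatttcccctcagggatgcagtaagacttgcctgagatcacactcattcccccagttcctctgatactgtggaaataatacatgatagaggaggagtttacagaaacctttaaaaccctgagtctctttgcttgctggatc
Stfa3: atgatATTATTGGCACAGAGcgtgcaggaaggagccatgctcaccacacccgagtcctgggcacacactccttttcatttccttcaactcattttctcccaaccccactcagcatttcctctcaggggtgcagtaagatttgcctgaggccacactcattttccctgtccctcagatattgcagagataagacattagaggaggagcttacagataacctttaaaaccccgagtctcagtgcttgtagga

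The capitalised run began 222 to 247 bases before the RefSeq start in the 5 genes. It was found in 5 of 32536 RefSeq windows of this length, 0.0154%, and these 5 were the stefin A windows. Csta1, the neighbour at the end of the cluster, did not hold it in its window. Over the whole windows, Stfa1 and BC100530 were identical at 96.1% of 229 aligned bases, Stfa2 and Stfa2l1 at 92.3% of 246, and the other pairs of the 5 at 81.8% to 86.3%. The whole windows include the bases not printed, 197 of 250 for Stfa1, 178 for BC100530 and 94 for Stfa2. By the GENCODE starts, these identities are thus not of upstream bases alone. The windows were also searched on both strands for 4 motifs. The C/EBP motif TTNNGNAA matched in Stfa1, BC100530, Stfa2 and Stfa2l1 and is found in 36.8% of all windows. In Stfa1, BC100530 and Stfa2 it lay 109, 88 and 40 bases before the RefSeq start, among the bases not printed. Only the match of Stfa2l1 is in the printed sequence. The kappaB motif matched in Stfa1, BC100530, Stfa2, Csta1 and Cst3 and is found in 46.0%. Its matches in Cst3, 67 and 44 bases before the RefSeq start, lay past the start of a GENCODE exon of that gene. The AP-1 motif TGANTCA, found in 6.73% of all windows, and the STAT motif TTCNNNGAA, found in 7.04%, had no match in the windows of these genes, and Stfa3 had no match to any of the 4. A match is a string of letters and was not tested as a binding site.

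Reads of near-identical copies can be assigned to the wrong copy, and the read length and the treatment of reads that align to several places are not given in the sources used here. Within the coding sequence, Stfa1 and BC100530 were identical at 97.9% of aligned bases, and Stfa2 and Stfa2l1 at 96.4%. Stfa3 had 80.9% to 84.5% identity to the other 4, and the lowest of all pairs was that of Stfa1 and Stfa2l1, at 76.6%. Of all stretches of 50 bases in its transcripts, BC100530 shared 36.2% with transcripts of other genes, Stfa2l1 24.6%, Stfa1 22.5% and Stfa2 15.9%, while Stfa3, Cstb, Cst6 and Cst3 shared 0%. At 100 bases the share was 15.6% for BC100530, 5.07% for Stfa1 and 0% for the other 6. The gene with which BC100530 shared most stretches of 100 bases was Gm15845, which is not among the genes followed here. It held 48 of the 123 shared stretches, with matches counted on both strands. Of the neighbours in the cluster, BC117090 shared 33.7% at 50 bases and 13.5% at 100, mostly or wholly with BC100530, and 2010005H15Rik and Gm5483 shared 20.4% and 14.2% at 50 bases, most often with each other. Values for Stfa1, BC100530 and BC117090, for Stfa2 and Stfa2l1, and for Gm5483 and 2010005H15Rik are therefore uncertain as to the copy. Reads of BC100530 may also be shared with Gm15845. Those of Stfa3 and of the 3 cystatins outside the cluster are not affected by stretches of these lengths.

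**Figure D1:**
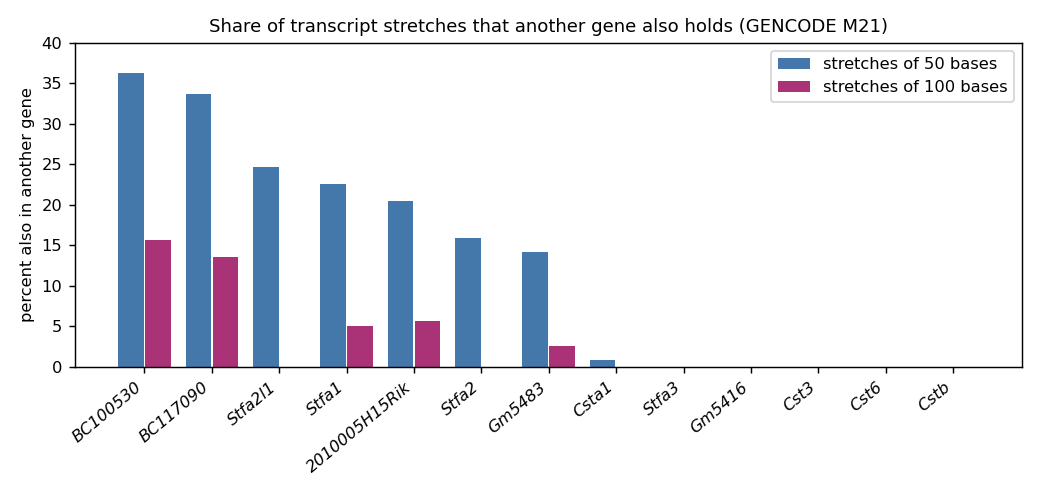
Percent of the stretches of 50 bases (blue) and 100 bases (purple) in the transcripts of each gene (horizontal axis) that also occur in a transcript of another gene (vertical axis). BC100530 has the tallest bar at both lengths, 36.2% and 15.6%, and Stfa3, Gm5416, Cst3, Cst6 and Cstb are at 0%.

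Library totals ranged from 30298275 to 64771160 counts, so that 3 counts, taken as the floor of detection for counting error, were 0.0463 to 0.0990 CPM, a gene's count relative to the size of its library. The labelled tissue was checked by the summed CPM of keratinocyte markers such as Krt10, Krt5 and Krt14, which was 44960 to 57470 in VAS + H2O, 56700 to 68040 in IMQ + H2O and 56970 to 63130 in IMQ + XYF. Within that list, by the calls described further on, Krt1 and Dsg3 were called higher and Krt15 lower in both imiquimod groups against VAS + H2O. Markers of other cells were present in every group. In the order VAS + H2O, IMQ + H2O and IMQ + XYF, their summed CPM was 39.9 to 50.7, 42.5 to 70.0 and 39.0 to 59.8 for macrophages and monocytes, 470.2 to 544, 442 to 607.5 and 465 to 506 for Langerhans cells, and 45.5 to 51.3, 25.5 to 35.1 and 23.4 to 35.9 for T cells. For cartilage it was 165 to 383, 32.2 to 75.0 and 116 to 176, for dermal fibroblasts 72.9 to 645.5, 48.0 to 53.2 and 73.5 to 210, for endothelium 4.36 to 9.64, 3.26 to 6.11 and 2.85 to 6.82, and for melanocytes 16.1 to 37.1, 13.3 to 24.7 and 19.0 to 26.9. The markers with the highest mean CPM were Csf1r, Cd68 and Lyz2 for macrophages and monocytes, Cd74, Mfge8 and H2-Aa for Langerhans cells, Trdc, Cd3g and Cd3e for T cells, Acan, Col9a1 and Cnmd for cartilage, Dcn, Col1a2 and Col3a1 for fibroblasts, Pecam1, Cdh5 and Kdr for endothelium, and Dct, Pmel and Tyrp1 for melanocytes. Among these lists, C1qb and Ly6c2 were called higher and Acan, Col2a1, Comp, Col9a1, Cnmd, Col1a2 and Pdgfrb lower in IMQ + H2O against VAS + H2O, and Col9a1 was called higher in IMQ + XYF against IMQ + H2O. Ly6c2 had 0 counts in VAS + H2O and passed the filter on low counts of that test through IMQ + H2O alone. In sheets of mixed cells, more cells of a type and more RNA per cell cannot be told apart.

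With imiquimod Stfa1, Stfa2, Stfa3 and BC100530 rose, from at most 2.60 CPM in any control library to between 2.59 and 509 CPM in the imiquimod libraries. Each comparison was fitted by edgeR's quasi-likelihood test on the 6 libraries of its groups, with p-values adjusted by Benjamini-Hochberg over all genes tested, and a differentially expressed gene (DEG) was one whose adjusted p was 0.05 or lower and whose level moved by 1 or more on the log2 scale, up or down. Standard errors (SE) are those of the log2 fold change. Against VAS + H2O, 7 of the 8 genes passed the filter on low counts in IMQ + H2O, and 4 of the 7 were DEGs, all higher: Stfa1, Stfa2, Stfa3 and BC100530. Of the 18009 genes tested, 3.64% were DEGs higher in IMQ + H2O and 4.04% were DEGs lower in it. By the adjusted p alone, 5 of the 7 rose and 1 fell, where 12.7% of all genes rose and 9.41% fell. All 7 had no overlap between the libraries of these groups, as did 45% of all genes. The median log2 fold change of the 7 was 5.16, the value of Stfa3, against -0.03 over all genes tested. The 7 ranged from -0.56 to 7.47, and the members were chosen with earlier results of these data known. In IMQ + XYF against VAS + H2O the same 4 were the DEGs among 7 tested, where 4.58% of 17954 genes were DEGs higher and 3.05% lower. By the adjusted p alone 6 of the 7 rose and 1 fell, where 16.7% of all genes rose and 12% fell, and all 7 had no overlap, as did 47.5% of all genes. Both comparisons use the same VAS + H2O libraries.

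**Figure D2:**
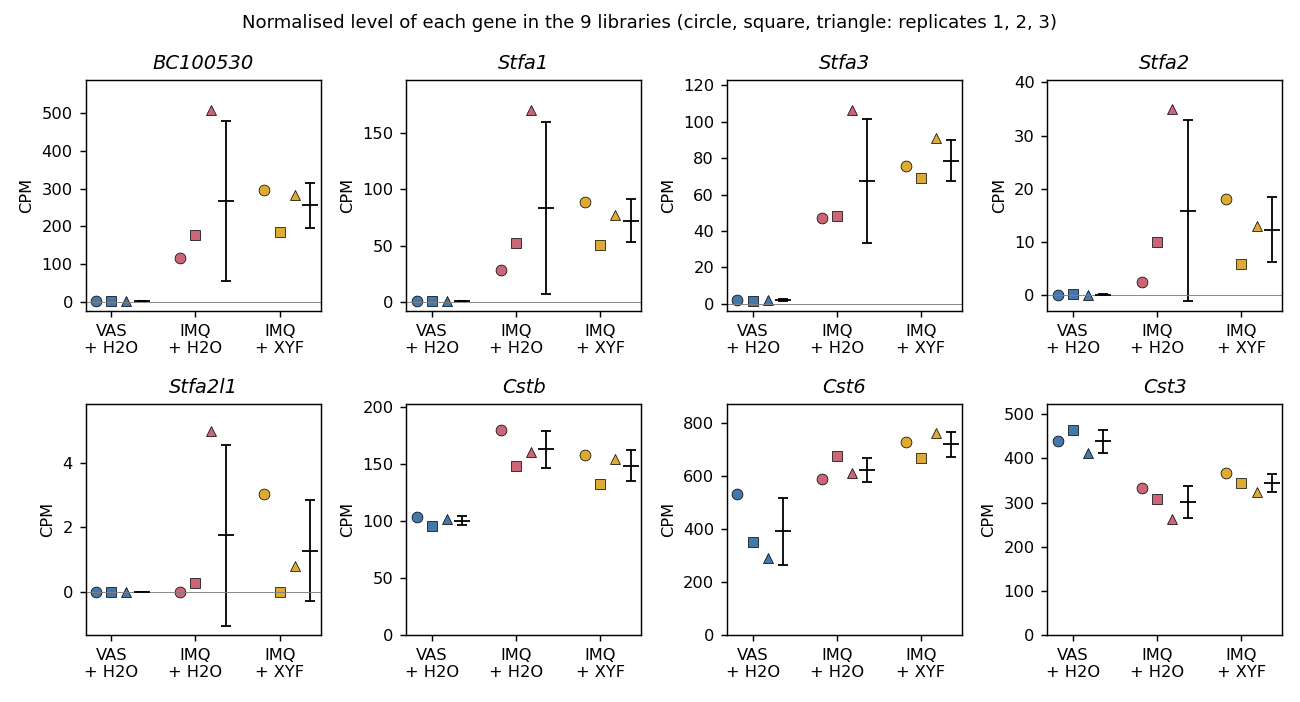
Normalised level (CPM, linear vertical axis, a scale of its own in each panel) of the 8 genes in the libraries of the 3 groups, with circles, squares and triangles for replicates 1, 2 and 3 and a black bar for the mean and SD of the 3 libraries. The stefin A genes lie near 0 in VAS + H2O, IMQ + H2O replicate 3 is the highest library of all 5 of them, and Cstb, Cst6 and Cst3 differ far less between groups.

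BC100530, the stefin A copy with the most counts, had 2.60, 1.12 and 1.86 CPM in VAS + H2O replicates 1 to 3. It had 115, 177 and 509 CPM in IMQ + H2O and 297, 186 and 283 CPM in IMQ + XYF. Every imiquimod library was above every control library, and the spread within IMQ + H2O was wider than that within IMQ + XYF. The log2 fold change was 7.13 in IMQ + H2O against VAS + H2O (edgeR, SE 0.725, adjusted p = 0.00551) and 7.07 in IMQ + XYF against VAS + H2O (edgeR, SE 0.346, adjusted p = 0.000167). Stfa1, the gene that shares most stretches of 50 bases with it, had 0.550, 0.394 and 0.430 CPM in VAS + H2O, from 26, 13 and 15 counts. It had 28.1, 52.1 and 171 CPM in IMQ + H2O and 88.6, 50.8 and 77.0 CPM in IMQ + XYF. Again replicate 3 of IMQ + H2O was the highest library, and no imiquimod library reached down to the controls. Its log2 fold changes were 7.47 (edgeR, SE 0.857, adjusted p = 0.00629) and 7.27 (edgeR, SE 0.291, adjusted p = 0.00011) in the same order. Without IMQ + H2O replicate 3 the log2 fold changes in IMQ + H2O were 6.26 for BC100530 and 6.41 for Stfa1.

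Stfa3, whose transcript shares no stretch of 50 bases with another gene, had 2.18, 1.27 and 2.12 CPM in VAS + H2O. It had 47.1, 48.1 and 107 CPM in IMQ + H2O and 75.7, 69.1 and 91.0 CPM in IMQ + XYF. The rise was therefore also seen in the copy whose reads are not shared at that length, with all imiquimod libraries above all controls. Its log2 fold change was 5.16 (edgeR, SE 0.429, adjusted p = 0.00353) in IMQ + H2O and 5.39 (edgeR, SE 0.228, adjusted p = 0.000132) in IMQ + XYF, each against VAS + H2O. Stfa2 had 0, 10 and 5 counts in VAS + H2O, that is 0, 0.303 and 0.143 CPM. It had 2.59, 9.96 and 35.0 CPM in IMQ + H2O and 18.1, 5.98 and 13.0 CPM in IMQ + XYF. The libraries of IMQ + H2O spanned a wider range than those of IMQ + XYF, and none overlapped the controls. Its log2 fold changes were 6.83 (edgeR, SE 1.30, adjusted p = 0.0162) and 6.48 (edgeR, SE 0.856, adjusted p = 0.00301), and without VAS + H2O replicate 1 the adjusted p of the former from edgeR was 0.0503. These values moved with the library left out, to 6.12 without VAS + H2O replicate 1 and 7.92 without replicate 2 in IMQ + H2O, and to 5.78 and 7.57 in IMQ + XYF, and without IMQ + H2O replicate 3 the former was 5.47.

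Stfa2l1, the near-copy of Stfa2, had the fewest counts of the 5. It had 0 counts in all VAS + H2O libraries, 0, 10 and 216 counts in IMQ + H2O, and 193, 0 and 28 counts in IMQ + XYF. Reads were thus found in 4 of the 6 imiquimod libraries, most of them in IMQ + H2O replicate 3 and IMQ + XYF replicate 1. It did not pass the filter on low counts in the comparisons with VAS + H2O and has no test there. Set against a floor of 3 counts over the VAS + H2O group, it was at least 73.1-fold higher in IMQ + H2O and at least 61.2-fold higher in IMQ + XYF, on group totals to which those 2 libraries contributed most. Per 100 counts of Stfa2, the 3 libraries of IMQ + H2O held 0, 2.61 and 14.3 counts of Stfa2l1 and those of IMQ + XYF 16.7, 0 and 6.15. The ratio between these near-copies was not constant across libraries. Stfa1 had 21.1 to 35.1 counts per 100 of BC100530 over all 9 libraries. Stfa3 had 83.7 to 114 counts per 100 of BC100530 in VAS + H2O and 20.96 to 40.8 in the imiquimod libraries, where the VAS + H2O values rest on 37 to 123 counts of BC100530.

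The other 6 genes of the cluster that were in the table differed in how far they moved. Csta1, at the end of the cluster, had 55.6, 41.1 and 41.9 CPM in VAS + H2O. It had 77.7, 65.6 and 99.4 CPM in IMQ + H2O and 85.9, 66.2 and 75.4 CPM in IMQ + XYF. Its imiquimod libraries lay above its controls by a small factor, with log2 fold changes of 0.80 (edgeR, SE 0.185, adjusted p = 0.0268) and 0.71 (edgeR, SE 0.149, adjusted p = 0.0138), so it was no DEG. Gm5416 had 0 counts in all VAS + H2O libraries, 62, 214 and 894 in IMQ + H2O and 648, 83 and 349 in IMQ + XYF, and was called a DEG in both comparisons with VAS + H2O. Against the floor over the group it was at least 379-fold higher in IMQ + H2O and at least 299-fold higher in IMQ + XYF. BC117090 had 3 counts in VAS + H2O, all in replicate 3, against 243 in IMQ + H2O and 248 in IMQ + XYF, ratios of 78.6 (95% exact conditional binomial interval 26.6 to 384) and 68.7 (23.2 to 335) that cover counting error only, and it was also a DEG in both. Gm5416 and BC117090 passed the filter on low counts through their imiquimod libraries alone, so these calls add nothing to the counts given. Gm5483 had 130 counts in IMQ + H2O replicate 3, 154 and 15 in IMQ + XYF replicates 1 and 3, and 0 in the rest. The fewest counts were those of 2010005H15Rik, at most 25 in a library, and of Gm4758, at most 12, and both had 0 in VAS + H2O. Csta2 and Csta3 were not analysed here.

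The 3 cystatins outside the cluster were abundant in the control epidermis and moved little. Cstb, which encodes the cytosolic stefin B, had 103, 95.6 and 101 CPM in VAS + H2O, 180, 148 and 161 CPM in IMQ + H2O and 158, 133 and 154 CPM in IMQ + XYF. All imiquimod libraries were above the controls, with log2 fold changes of 0.69 (edgeR, SE 0.0913, adjusted p = 0.00808) and 0.57 (edgeR, SE 0.0836, adjusted p = 0.00423), below the fold threshold of a DEG. Cst6, which encodes cystatin E/M, had 534, 351 and 291 CPM in VAS + H2O, 589, 675.5 and 611 CPM in IMQ + H2O and 728, 669 and 763 CPM in IMQ + XYF. Its controls spread widely, with replicate 1 close to the imiquimod libraries but under all of them. Its log2 fold change was 0.66 (edgeR, SE 0.215, adjusted p = 0.0694) in IMQ + H2O, which did not pass the threshold, and 0.88 (edgeR, SE 0.215, adjusted p = 0.0238) in IMQ + XYF. The former passed by the adjusted p without VAS + H2O replicate 1, with all 9 libraries in 1 fit and with DESeq2 (adjusted p = 0.0301 and 0.0314 from edgeR and 0.0116), and the latter missed it without VAS + H2O replicate 2, IMQ + XYF replicate 1 or IMQ + XYF replicate 3 (adjusted p = 0.0747, 0.0627 and 0.0773 from edgeR).

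Cst3, which encodes the secreted cystatin C, went the other way. It had 441, 464.5 and 412 CPM in VAS + H2O, 334, 309 and 262.5 CPM in IMQ + H2O and 366, 344 and 324 CPM in IMQ + XYF. Every imiquimod library was below every control, and the IMQ + XYF libraries overlapped those of IMQ + H2O. The log2 fold change was -0.56 (edgeR, SE 0.111, adjusted p = 0.0182) in IMQ + H2O and -0.35 (edgeR, SE 0.0781, adjusted p = 0.0176) in IMQ + XYF, each against VAS + H2O. The former missed the threshold without VAS + H2O replicate 1 or 2 (adjusted p = 0.0554 and 0.06 from edgeR), and the latter without VAS + H2O replicate 1, IMQ + XYF replicate 2 or IMQ + XYF replicate 3 (adjusted p = 0.0524, 0.067 and 0.0694 from edgeR).

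**Figure D3:**
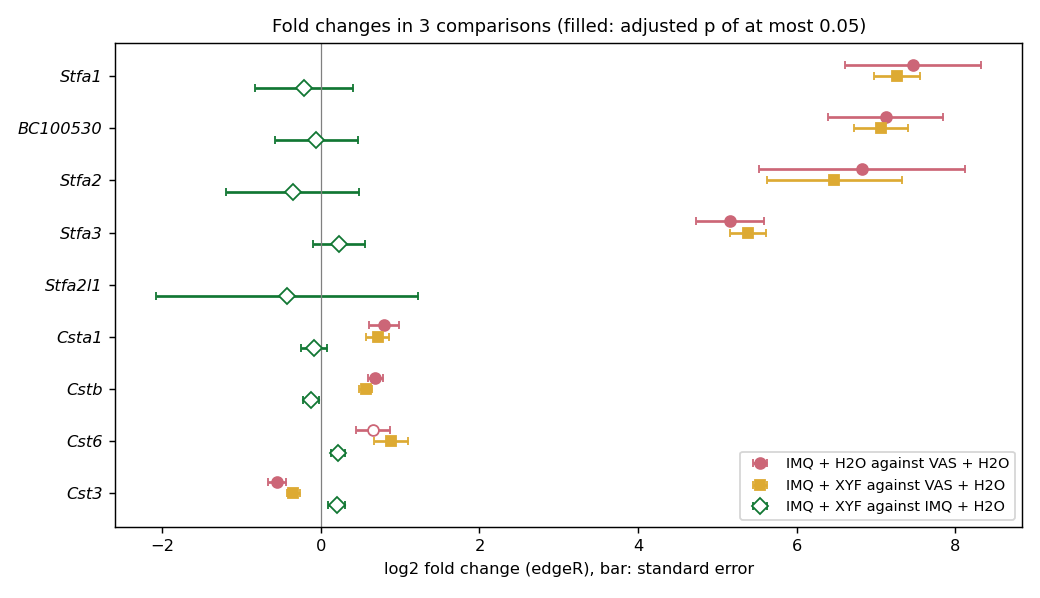
Log2 fold change from edgeR (horizontal axis, with its standard error as a bar) of the 8 genes and of Csta1 in 3 comparisons, filled where the adjusted p is at most 0.05. Stfa1, BC100530, Stfa2 and Stfa3 lie between 5.16 and 7.47 against VAS + H2O, the other genes lie between -0.56 and 0.88, and all points of IMQ + XYF against IMQ + H2O are open. Stfa2l1 has a point in that comparison alone.

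Between IMQ + XYF and IMQ + H2O, no difference in the 8 genes passed the test. All 8 passed the filter on low counts, 0 were DEGs and 0 were called by the adjusted p alone, where 0.0281% of 17793 genes were DEGs higher in IMQ + XYF and 0% lower, with the same shares by the adjusted p alone. None of the 8 had libraries without overlap, against 10.7% of all genes, and their median log2 fold change was -0.09, against 0.00058 over all genes. Of all genes, 966 had an unadjusted p under 0.05 in edgeR, and of the 8 only Cst6 did (unadjusted p = 0.048, adjusted p = 0.908 from edgeR), with a log2 fold change of 0.21 (standard error 0.0878). DESeq2 also called 0 of the 8. The log2 fold changes of the cluster were -0.21 for Stfa1 (standard error 0.616), -0.35 for Stfa2 (standard error 0.841), -0.43 for Stfa2l1 (standard error 1.65), 0.23 for Stfa3 (standard error 0.325) and -0.06 for BC100530 (standard error 0.524). These standard errors are as large as the differences or larger, so a change of moderate size in either direction was not detectable. Those of Cst3 and Cstb were 0.20 (standard error 0.105) and -0.13 (standard error 0.103). Without IMQ + H2O replicate 3 the log2 fold changes of Stfa1, Stfa2, Stfa2l1 and BC100530 were above 0, at 0.85, 0.97, 3.20 and 0.80. Without IMQ + XYF replicate 2 those of Stfa2l1 and BC100530 were 0.13 and 0.12.

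IMQ + H2O replicate 3, the highest library for all 5 stefin A members, and IMQ + XYF replicate 1 were the 2 libraries with the most neutrophil transcripts. Summed over 13 neutrophil markers, the CPM was 16.9 to 19.8 in VAS + H2O, 51.6, 58.7 and 180 in IMQ + H2O replicates 1 to 3 and 115.5, 67.2 and 75.3 in IMQ + XYF replicates 1 to 3. Cxcr2 and Mmp9 made up nearly all of the sum in VAS + H2O. The other markers differed among themselves, and those given here, Csf3r and Trem1 apart, were named after their values were seen. Elane had 0 counts in all libraries, and Ltf, Camp, Mpo, Ngp and Ly6g had at most 22 in any. Trem1, Fpr1, Retnlg and Mmp8 had 710, 375, 662 and 399 counts in IMQ + H2O replicate 3 and 666, 307, 364 and 315 in IMQ + XYF replicate 1. Csf3r, the receptor of the neutrophil growth factor G-CSF, had 0.173, 0.858 and 37.99 CPM in IMQ + H2O and 22.9, 1.33 and 6.10 CPM in IMQ + XYF, against at most 0.0910 in VAS + H2O. Of the 13 markers, 2 passed the filter on low counts in IMQ + H2O against VAS + H2O, and Cxcr2 was a DEG higher. In IMQ + XYF against VAS + H2O 4 passed, and Cxcr2, Csf3r and Trem1 were DEGs higher. Csf3r and Trem1 passed there through the imiquimod libraries alone and were not tested in the former comparison. Between the imiquimod groups 7 passed and 0 were DEGs. In the same order, 3.64%, 4.58% and 0.0281% of all genes tested were DEGs higher. The sum of the macrophage and monocyte markers was also the highest of its group in those 2 libraries, at 70.0 and 59.8 CPM, and its part in the level of the cluster was not tested.

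Without Cxcr2 and Mmp9, left out after their values were seen, the marker sum was 0.0860 to 0.334 CPM in VAS + H2O, 0.276, 2.99 and 88.8 in IMQ + H2O and 49.6, 2.56 and 14.8 in IMQ + XYF. The sum of the 5 stefin A members was 3.09 to 5.33 CPM in VAS + H2O, 193, 288 and 827 in IMQ + H2O and 482, 312 and 464.5 in IMQ + XYF, where replicates 1 and 3 were close. IMQ + H2O replicate 1 held 193 CPM of stefin A transcripts, with a marker sum in the range of the controls when Cxcr2 and Mmp9 were left out and of 51.6 CPM, above the controls, over all 13 markers. Stfa2l1 and Gm5483 were at 0 in IMQ + H2O replicate 1 and IMQ + XYF replicate 2. Those libraries had the lowest marker sums of their groups and also the fewest total counts, 30298275 and 33208358. Gm5483 was at 0 in IMQ + H2O replicate 2 as well. By contrast, 2010005H15Rik was at 26.6% of its highest library in IMQ + XYF replicate 2 and at 0% in replicate 3. The part of depth in these values was not tested. With the 2 libraries highest in neutrophil markers left out, a step chosen after seeing the data, the log2 fold changes in IMQ + H2O against VAS + H2O were 6.41 for Stfa1, 5.47 for Stfa2, 4.66 for Stfa3 and 6.26 for BC100530, and the same 4 genes were called. In IMQ + XYF they were 7.11, 6.09, 5.44 and 6.96, with the same 4 called. Each of these fits leaves out 1 library, so the IMQ + H2O values are those already given without replicate 3 and are no second check. IMQ + H2O replicate 2 and IMQ + XYF replicates 2 and 3 were kept. Their marker sums without Cxcr2 and Mmp9, 2.99, 2.56 and 14.8 CPM, were above the controls. How much of the cluster's level came from each cell type was not tested.

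**Figure D4:**
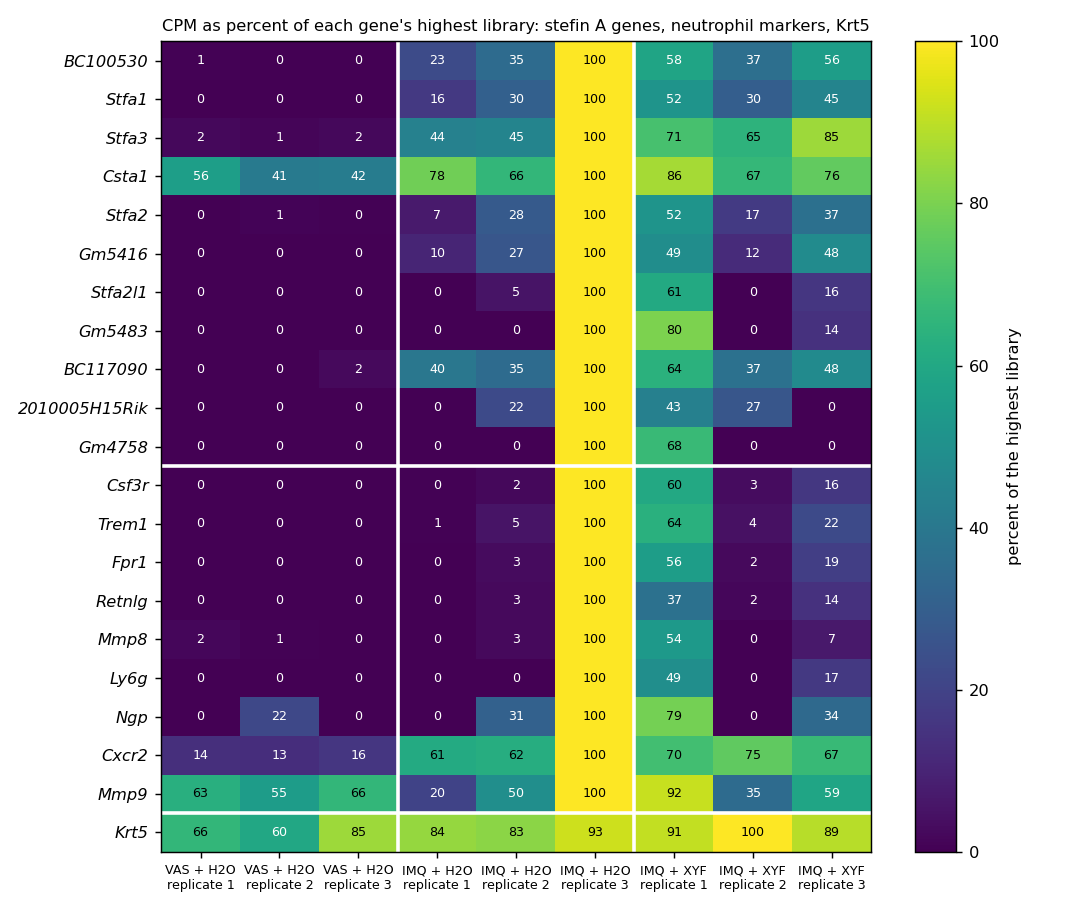
CPM of each gene (rows) in each library (columns) as a percent of that gene's highest library, for the 11 stefin A genes (top), the 9 neutrophil markers with at least 10 counts in a library (middle) and Krt5 (bottom). IMQ + H2O replicate 3 is at 100 in all 11 stefin A rows. In IMQ + H2O replicate 1, BC100530, Stfa1 and Stfa3 hold 16.4 to 44.1, Csta1 78.1, BC117090 39.7, Gm5416 10.3 and Stfa2 7.40. Stfa2l1, Gm5483, 2010005H15Rik and Gm4758 are at 0 in that library. Of the neutrophil markers, Csf3r, Fpr1, Retnlg, Mmp8, Trem1, Ly6g and Ngp are at 0 to 1 there, while Cxcr2 is at 61.02 and Mmp9 at 19.99.

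Divided by the length of the union of each gene's exons over its transcripts, which was 4090 bases for Cst6, the order of the genes differed between groups. In VAS + H2O it was Cst3 at 347 CPM per kb, Cstb at 166, Cst6 at 95.8, Stfa3 at 4.51, BC100530 at 2.36, Stfa1 at 0.645, Stfa2 at 0.316 and Stfa2l1 at 0. In that order Stfa3 and BC100530, Stfa1 and Stfa2, and Stfa2 and Stfa2l1 overlapped in their libraries, and the other neighbours did not. In IMQ + H2O it was BC100530 at 338 CPM per kb, Cstb at 270, Cst3 at 238, Stfa3 at 163, Cst6 at 153, Stfa1 at 118, Stfa2 at 33.7 and Stfa2l1 at 4.18, and all neighbours overlapped. In IMQ + XYF it was BC100530 at 323 CPM per kb, Cst3 at 272, Cstb at 246, Stfa3 at 191, Cst6 at 176, Stfa1 at 102, Stfa2 at 26.2 and Stfa2l1 at 3.05. There Cst6 and Stfa1, Stfa1 and Stfa2, and Stfa2 and Stfa2l1 did not overlap, and the other neighbours did. BC100530 thus went from the fifth place in VAS + H2O to the level of Cst3 and Cstb, with libraries that overlapped theirs in both imiquimod groups.

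The proteases that cystatins inhibit moved by smaller amounts and in both directions. Of 11 genes, the cathepsins and legumain, 0 were DEGs higher and 1 was a DEG lower in IMQ + H2O against VAS + H2O, where 3.64% and 4.04% of all genes were. By the adjusted p alone 3 rose and 3 fell, where 12.7% and 9.41% of all genes did, and their median log2 fold change was 0.40, against -0.03 over all genes. Ctsb, a lysosomal cathepsin, had 180 to 193 CPM in VAS + H2O, 301 to 393 in IMQ + H2O and 368 to 377 in IMQ + XYF. It changed by 0.84 on the log2 scale in IMQ + H2O (edgeR, SE 0.121, adjusted p = 0.00924) and 1.02 in IMQ + XYF (standard error 0.0612), and it was a DEG in the latter. Ctsc, which activates granule proteases, and Lgmn, which encodes legumain, had log2 fold changes of 0.989 and 0.999 in IMQ + H2O, just under the fold threshold, and 1.217 and 1.064 in IMQ + XYF, where both were DEGs. Ctsw, a cathepsin of cytotoxic lymphocytes, fell by 1.08 on the log2 scale in IMQ + H2O (edgeR, SE 0.256, adjusted p = 0.028), and Ctsf and Ctso fell by 0.85 and 0.78. Ctsl and Ctsh, with the highest CPM of the list after Ctsb, had log2 fold changes of 0.47 and 0.40 in IMQ + H2O that did not pass the test. In IMQ + XYF against VAS + H2O, 3 of the 11 were DEGs, all higher, where 4.58% of all genes were, and by the adjusted p alone 5 rose and 3 fell, where 16.7% and 12% did. Between the imiquimod groups 0 of the 11 were DEGs or passed by the adjusted p alone, with a median log2 fold change of 0.17.

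Of 14 further genes of the cystatin family, 13 were in the table, 8 had 0 counts in all 9 libraries and 3 passed the filter. Fetub, which encodes fetuin-B, a secreted member of the family, rose from 1.12 to 2.01 CPM in VAS + H2O to 3.07 to 5.98 in IMQ + H2O and 4.93 to 8.88 in IMQ + XYF. It was a DEG in both comparisons, with log2 fold changes of 1.72 (edgeR, SE 0.353, adjusted p = 0.019) and 2.15 (edgeR, SE 0.353, adjusted p = 0.00603). Cst7, which encodes the leukocyte cystatin F, and the kininogen gene Kng2 had log2 fold changes of -0.83 and -1.59 in IMQ + H2O that did not pass the test (adjusted p = 0.0812 and 0.0716 from edgeR). Between the imiquimod groups 0 of the 3 were called.

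Among 18484 other genes, those whose log2 CPM over the 9 libraries was most like that of BC100530 were Bdkrb2, with a Pearson r of 0.999, Capza1 at 0.996, and Krt6b, Klk6 and Gda at 0.995. Bdkrb2 encodes a bradykinin receptor, Krt6b a keratin of wounded and hyperproliferative epidermis and Klk6 a kallikrein protease. Krt6b averaged 16.01 CPM with Vaseline, 1499 with imiquimod alone and 1287 with imiquimod and XYF. For Cst6 the likest were 1700120C14Rik, Gm44751, Cnga3, Krt90 and Ier5l, with r from 0.965 to 0.981. The first 4 of them were scarce, with means of 0.193, 0.415, 0.0564 and 0.192 CPM in VAS + H2O, against a detection floor of 0.0463 to 0.0990 CPM. For Cstb they were 1200007C13Rik, the kallikrein gene Klk8, Twf1, Nt5dc2 and Gm26579, with r from 0.978 to 0.993. Of these, 1200007C13Rik and Gm26579 averaged 0.2045 and 0 CPM in VAS + H2O. For Cst3 the likest were Slc35e3, Sesn3, Pced1b, BC067074 and Gsn, the gene of the actin-severing protein gelsolin, with r from 0.977 to 0.982. These r values are over 9 libraries that share the group differences and their depth, and are a description. Few of the genes named remained among the likest with Spearman's rho in place of Pearson's r.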

How the data were processed

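Total RNA of epidermal ear sheets was sequenced by the authors from TruSeq libraries, with STAR as the aligner, GRCm38 as the genome, Ensembl release 90 as the annotation and StringTie for transcripts. The labels call the libraries strand-specific. The submitters' processing notes also name FastQC, STAR 2.5, Cuffnorm and DESeq 1.22.1. The authors deposited whole-number counts per gene without normalization, and the counting tool is not given in the sources used here. The fit used R 4.3.3 with edgeR 4.0.16: TMM, filterByExpr and the quasi-likelihood test on the 6 libraries of each comparison, over all genes. CPM used TMM factors over 18492 genes, and log2 CPM a prior count of 2. DESeq2 1.42.0 and the other settings given under the processing section were alternatives. On data simulated with the spread of VAS + H2O alone, edgeR recovered 80.5% of 200 genes changed 4-fold, with 16 false calls. DESeq2 recovered 82.5%, with 42 false calls. With no gene changed, edgeR made 4 calls and DESeq2 made 12. The spread of the imiquimod groups was not simulated. Transcripts and gene positions are from GENCODE M21, promoters from RefSeq. Named genes were all members, and in each list the genes called and the 3 with the highest mean CPM. All genes of the cluster in the table were also named, and further neutrophil markers were named after their values were seen. The members and lists were chosen with earlier results of these data known. No replicate was a duplicate of another: the chi-square per gene between replicates was 24.8 to 79.4. Totals in replicate order were 44681447, 31034401 and 34689174 (VAS + H2O), 30298275, 39617029 and 43815369 (IMQ + H2O), and 64771160, 33208358 and 34913386 (IMQ + XYF). Dermal libraries were not analysed here.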

Additional observations from a re-analysis of the deposited data

How the results depend on the processing

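Against VAS + H2O, the number of members called was 4 in both comparisons, and stayed between 3 and 5 under the alternatives, with these exceptions. With the stefin A members summed to 1 row it was 1 in each, since that row then stands for 5 genes. By the adjusted p alone it was 6 for the model group and 7 for the XYF group. With a library left out it ranged from 3 to 4 for the former and from 4 to 5 for the latter: Stfa2 lost its call without VAS + H2O replicate 1, and Cst6 gained one, also without that library, at a log2 fold change of 1.17. Stfa2l1 was tested against VAS + H2O, and not called, with DESeq2, with no low-count filter, with all 9 libraries in 1 fit and, for the XYF group, without any 1 VAS + H2O replicate, and it was called without IMQ + XYF replicate 2. The imiquimod groups set against each other gave 0 under every alternative run. In that comparison signs turned. With the replicate block the log2 fold changes were 0.14 for Stfa1, 0.035 for Stfa2 and 0.19 for BC100530, and with the members summed that of the sum, in place of Stfa3, was -0.050. Without both libraries highest in neutrophil markers, chosen after seeing the data, they were 0.67, 0.58 and 0.68 for Stfa1, Stfa2 and BC100530. With a library left out they ranged from -0.63 to 0.85 for Stfa1, -0.86 to 0.97 for Stfa2, -2.13 to 3.20 for Stfa2l1 and -0.43 to 0.80 for BC100530. The replicate block called 4, 0 and 4 members, in the order IMQ + H2O against VAS + H2O, IMQ + XYF against IMQ + H2O and IMQ + XYF against VAS + H2O, so it changed no call. Same-numbered libraries correlated in their deviations at -0.13 to 0.11, and they share only a number. With Spearman's rho in place of Pearson's r, 3 of the 20 most similar genes remained. With the longest transcript as length, 22 of 24 ranks were kept. The depth limits Stfa2 and Stfa2l1 in VAS + H2O, where counts were at most 10.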
